A study of Homo sapiens with 6 samples.

Results

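Genes of the LY6 and PLAUR-domain family were compared between luminal and luminobasal breast cancer cells. The genes were LY6D, LY6E, LY6H, LY6K, LYNX1, PSCA, SLURP1, LYPD2, LYPD3 and GML, and every array probe that carried a listed gene symbol and was not a control spot was taken. This gave 14 probes for the 10 genes, of 34127 probes for 25940 gene names on the array. The genes were proposed with the difference between these cells already known, so their values are given as a description and without a test.

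RNA was measured on 6 Agilent arrays with a single dye, 3 for pure luminal cells (pLUM) and 3 for pure luminobasal cells (pLB). Both lines descend from the human breast cancer line T47D, of which the T47Dco subline was grown as tumors in ovariectomized NOD SCID gamma mice, returned to culture and sorted repeatedly by FACS for CLD3 and CD49f. pLUM (CLD3+ CD49f-) came from an estradiol (E) tumor, was cultured and maintained in medium with E, and received 1 nM E for 72 h for profiling. In contrast, pLB (CLD3- CD49f+) came from a tumor under E plus progesterone and was cultured and kept under estrogen withdrawal (EWD) without added hormone. Each line was cultured for about 2 months (pLUM) or 2.5 months (pLB) before its first sort and about 2 months after it. Each line is the product of a single derivation, and line, tumor and hormone coincide on all 6 arrays, so that they cannot be told apart. The replicates are separate sorts of the same line, and the spread between them is that of repeated sorts. Cells were also stained for CK5 and sorted into CK5+ and CK5- before RNA was extracted, and the fraction that was hybridized is not given in the sources used here.

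Proteins of this family share the LY6/uPAR domain, a small fold in which loops extend from a core held together by disulfide bonds between conserved cysteines. Most are tethered to the outer leaflet of the plasma membrane by a glycosylphosphatidylinositol (GPI) anchor, some are secreted, and the urokinase receptor PLAUR is the best known member with several copies of the domain. Some act on nicotinic acetylcholine receptors, some in cell adhesion and fertilization, and several are surface antigens of stratified epithelia or of tumors.

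One of the LYPD3 probes is shown because the call for this gene was among the least settled and its probes differed in how they match the genome. It was designed to transcript NM_014400 and spans hg19 chr19:43965982-43967319, so that its 60 bases match 2 stretches separated by 1278 bases of genome. Of its 3 forward reading frames 1 lacks a stop codon, and that frame holds 1 cysteine codon, in capitals, although whether it is the translated frame was not read from an annotation:
LYPD3 junction probe: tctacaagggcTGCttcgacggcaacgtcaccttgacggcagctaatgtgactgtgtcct
The other LYPD3 probe matches 60 contiguous bases for the same transcript, at chr19:43965563-43965622, and has 2 frames without a stop codon.

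Signals are log2 intensities relative to the 75th percentile of the same array. The percentile was 474 to 566 on the pLUM arrays and 449 to 869 on the pLB arrays, 21285 to 22775 probes per array were well above background, and no gene spot was saturated. Across tested probes, which are not independent, Pearson's r was 0.984 to 0.991 between pLUM arrays, 0.972 to 0.989 between pLB arrays and 0.780 to 0.806 between the lines. Of 8 luminal markers all exceeded background in pLUM and 7 were lower in pLB, where PGR was well above background on no array. All 8 luminobasal markers, TP63 and EGFR among them, were well above background on the 3 pLB arrays, against 3 of 8 on the pLUM arrays. CLDN3, ITGA6 and KRT5 (CK5) encode antigens used for sorting and are therefore no finding. The authors list the other markers with RNA differences between pLB and pLUM, so their direction was known beforehand and is no finding either. Of 14 markers of fibroblasts, endothelium and immune cells, 5 were well above background on all pLUM arrays and 7 on all pLB arrays. The log2 of their summed signal was -0.43 to -0.06 in pLUM and -0.36 to 0.17 in pLB for fibroblasts, -3.38 to -2.85 and -3.04 to -2.01 for endothelium, and -0.93 to -0.61 and -1.36 to -0.89 for immune cells. PDGFRB, LUM, COL3A1, PECAM1, KDR and HBB were well above background on no array, while COL1A2 (at least 11.5-fold) and VWF (at least 1.80-fold), at background in pLUM, and CD68 (1.52 on the log2 scale) were higher in pLB. The part of other cell types in the values below was not tested. Precision is limited by the number of arrays.

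A probe was tested if it was well above background on at least 3 of the 6 arrays, and a gene was called if it differed by at least 2-fold with a Benjamini-Hochberg adjusted p under 0.05 over all tested probes in limma. Of the 10 genes, 7 had a tested probe, represented by the one with the highest mean. LY6K, LY6D and LY6E were called higher in pLB, SLURP1 was called lower, and LYNX1, PSCA and LYPD3 were not called. Over all 17670 tested genes, 45.7% were called, 22.7% higher and 23.0% lower, and over the 23105 tested probes 45.6% were called, 21.9% higher and 23.7% lower. The arrays of the lines did not overlap for 4 of the 7 genes, and for 69.1% of all tested genes. The median log2 difference was 0.87 over the 7 genes and 0.04 over all tested genes. This median, and those of the gene lists given later, were the same with genes at background in a line set to their bound. Nothing is read from these counts, because the genes were chosen on the same comparison and passing the filter can itself depend on the line in which a gene is bright.

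**Figure D1:**
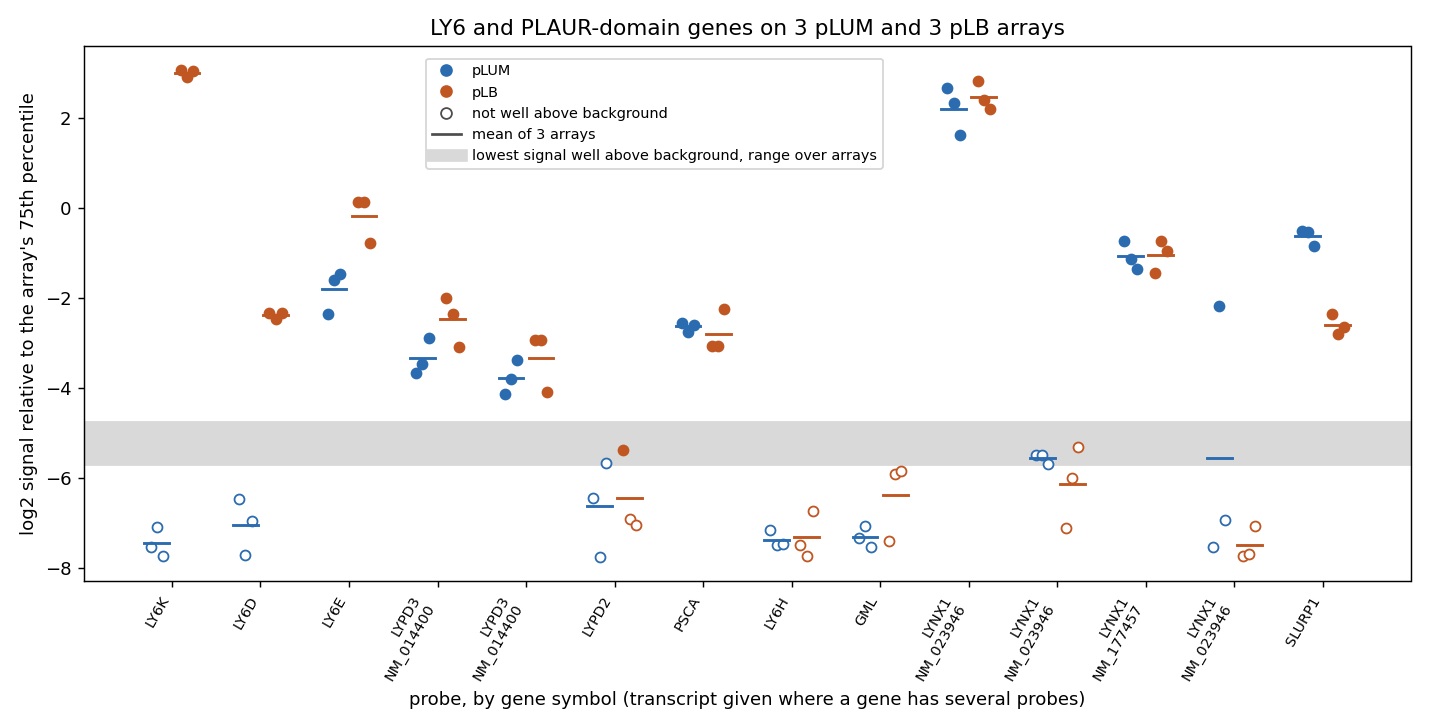
The log2 signal relative to the array's 75th percentile (vertical axis) is plotted for each of the 14 probes (horizontal axis), with 3 pLUM arrays in blue, 3 pLB arrays in orange and a line at the mean of each. Open points were not well above background, and the grey band is the range over arrays of the lowest signal that was. LY6K and LY6D rise from open points in pLUM to filled points in pLB, SLURP1 lies lower in pLB, and the LYNX1 and PSCA points overlap. Signals of different probes are not comparable with each other.

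LY6K, a GPI-anchored protein known for its expression in testis and for its reappearance in tumors, had the widest range over the 6 arrays of these genes, 10.80 on the log2 scale. Its probe (NM_017527, chr8:143784821-143784880) gave -7.53, -7.10 and -7.73 in pLUM and 3.07, 2.91 and 3.06 in pLB, with arrays here and below in the order of replicates 1, 2 and 3. The pLUM signals were all below the level called well above background, and the pLB signals were all above it and close together. The fitted difference was 10.46 ± 0.20 (SE, 3 arrays per line). Because the pLUM arrays held only background, the fold is given as a bound, and LY6K was at least 336-fold higher in pLB with the processing reported here. For such a bound, each array of the line at background was given the lowest signal well above background on that array, or the probe's signal if that was greater, and the mean was set against that of the bright line. On these arrays, here as below, fewer cells that express a gene and less RNA per cell cannot be told apart. With another background correction (normexp, to which an offset of 50 intensity units was added) the fitted difference was 5.83, which is smaller than that bound.

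LY6D, a surface antigen of keratinocytes and of early B-lineage cells, had the same on and off pattern at a smaller size. Its probe (NM_003695, chr8:143866309-143866368) gave -6.47, -7.71 and -6.95 in pLUM, none of them well above background, and -2.33, -2.45 and -2.33 in pLB, all well above it. The fitted difference was 4.67 ± 0.31, and LY6D was at least 8.03-fold higher in pLB. With normexp correction and its offset the difference was 0.98 (limma adjusted p = 0.0613) and the gene was no longer called. The bound of 8.03-fold was computed for the processing reported here and does not hold with that correction. LY6D was called higher in the other 16 of the 17 alternatives that gave it a value.

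LY6E, a widely expressed GPI-anchored protein that is induced by interferon and restricts the entry of some viruses, was well above background on all 6 arrays. The probe (NM_002346, chr8:144102816-144103007, a span longer than the probe) gave -2.34, -1.60 and -1.46 in pLUM and 0.15, 0.14 and -0.77 in pLB. The lowest pLB array, replicate 3, was still above the highest pLUM array. The fitted difference was 1.64 ± 0.34, or 3.12-fold higher in pLB.

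PSCA, prostate stem cell antigen, is a GPI-anchored protein found in prostate, bladder and stomach epithelium. Its probe (NM_005672, chr8:143763976-143764035) gave -2.54, -2.74 and -2.60 in pLUM and -3.07, -3.07 and -2.25 in pLB. pLB replicates 1 and 2 were below all pLUM arrays and pLB replicate 3 was above all of them. The fitted difference was -0.17 ± 0.25.

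LYPD3, also known as C4.4A, is a structural relative of the urokinase receptor that is anchored at the surface of suprabasal keratinocytes and binds laminin and AGR proteins. Its contiguous probe gave -3.67, -3.46 and -2.87 in pLUM and -1.99, -2.34 and -3.09 in pLB. The junction probe shown above gave -4.12, -3.81 and -3.38 in pLUM and -2.93, -2.94 and -4.09 in pLB. In both probes pLB replicates 1 and 2 were above all pLUM arrays, whereas pLB replicate 3 fell within the pLUM range. The fitted differences were 0.87 ± 0.33 for the contiguous probe, which represents the gene, and 0.45 ± 0.36 for the junction probe, and neither was called. The contiguous probe would have been called without pLB replicate 3 (1.17, limma adjusted p = 0.00927), without pLUM replicate 3 (1.1, limma adjusted p = 0.0365), or with the slide that held each array as a block (1.35, limma adjusted p = 0.0304).

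LYPD2, LY6H and GML were not tested, since none had a probe well above background on 3 arrays. The LYPD2 probe (NM_205545, chr8:143831850-143832477) gave -6.44, -7.75 and -5.66 in pLUM and -5.37, -6.92 and -7.05 in pLB, of which only pLB replicate 1 was well above background. LY6H, a neuronal relative that limits nicotinic receptors at the surface, gave -7.16, -7.49 and -7.47 in pLUM and -7.49, -7.73 and -6.73 in pLB (NM_002347, chr8:144239753-144239812). GML, a GPI-anchored protein first described as a p53-responsive gene, gave -7.33, -7.06 and -7.53 in pLUM and -7.40, -5.92 and -5.85 in pLB (NM_002066, chr8:143928184-143928243). For LY6H and GML no array of either line was well above background, so no level or difference was measurable.

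SLURP1 and LYNX1 act on nicotinic acetylcholine receptors, SLURP1 as a secreted protein of keratinocytes that is mutated in the skin disease Mal de Meleda and LYNX1 as a membrane-tethered modulator first found in brain. SLURP1 was the only one of the 7 tested genes called lower in pLB. Its probe (NM_020427, chr8:143822362-143822421) gave -0.51, -0.53 and -0.83 in pLUM and -2.36, -2.79 and -2.65 in pLB. All 6 arrays were well above background and the lines lay apart, with a fitted difference of -1.98 ± 0.19, or 3.94-fold lower in pLB.

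LYNX1 had 4 probes, which did not all report the same transcript. The probe that represents the gene (NM_023946, chr8:143845756-143845815) gave 2.67, 2.34 and 1.63 in pLUM and 2.83, 2.40 and 2.22 in pLB, and the probe to NM_177457 (chr8:143852740-143852799) gave -0.73, -1.12 and -1.36 in pLUM and -1.44, -0.72 and -0.95 in pLB. The lines overlapped in both, with differences of 0.27 ± 0.30 and 0.03 ± 0.25. A RefSeq table (GRCh38.p14) lists NM_023946 under the readthrough gene LYNX1-SLURP2 and NM_177457 under LYNX1, so the files' symbol covers both, and SLURP2 had no probe under its own name. Of the remaining NM_023946 probes, the one at chr8:143846092-143846151 was well above background on no array. The other, at chr8:143859447-143859506, was well above background only on pLUM replicate 2 (-2.18), against -7.54 and -6.93 on the other pLUM arrays and -7.74, -7.70 and -7.06 in pLB, and neither was tested.

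Slide 1 held pLB replicate 1 and all pLUM arrays, and slide 2 held the other pLB arrays. With slide as a block the difference is therefore that of pLB replicate 1 from the mean of pLUM. It was then 10.52 for LY6K, 4.71 for LY6D, 1.95 for LY6E, -1.74 for SLURP1, -0.45 for PSCA, and 0.61 and -0.37 for the tested LYNX1 probes. pLB replicate 3 stood apart from the other pLB arrays for several genes. It was the lowest pLB array for LY6E and for both LYPD3 probes and the highest for PSCA. Without it the difference of LY6E was 1.95, that of LY6K and LY6D stayed within the ranges of 10.33 to 10.64 and 4.34 to 4.96 that leaving out any single array gave, and SLURP1 stayed within -2.10 to -1.88.

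**Figure D2:**
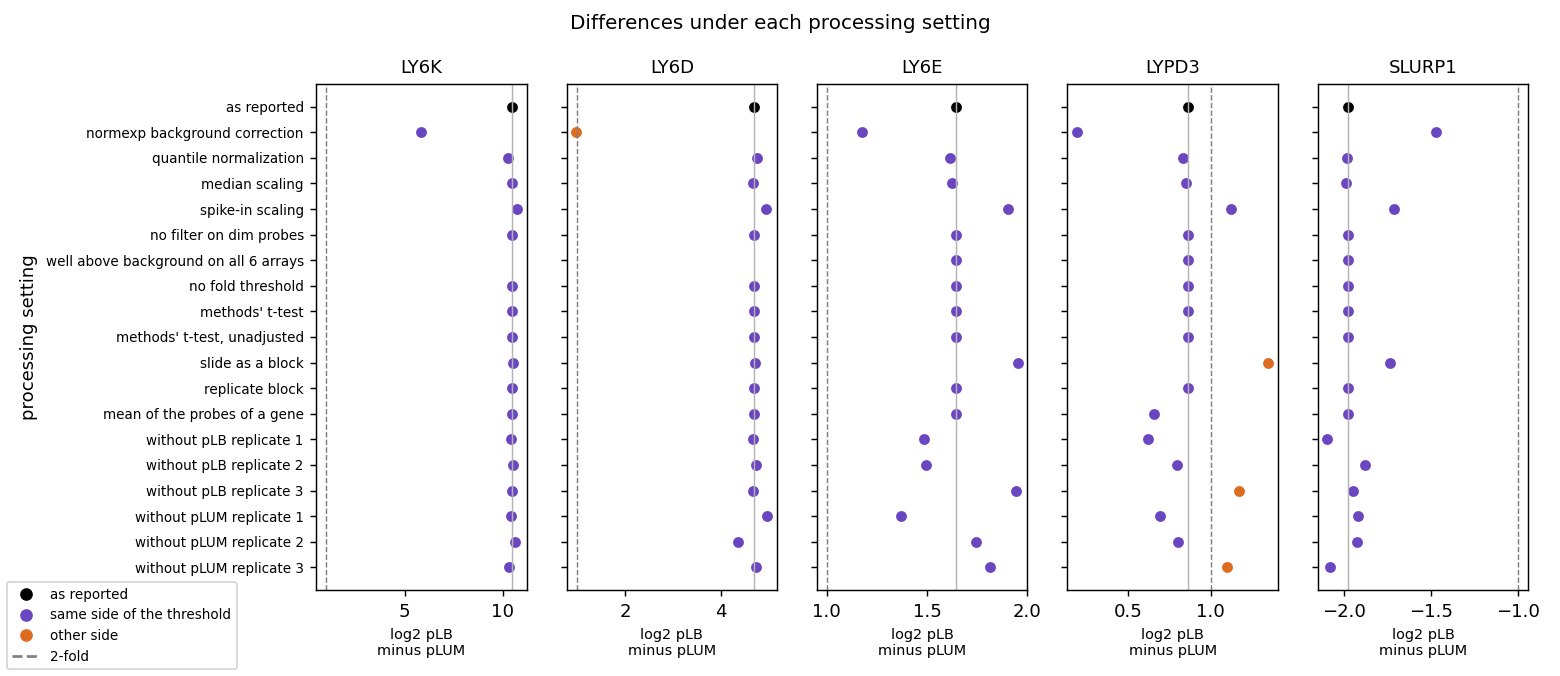
The log2 difference between pLB and pLUM (horizontal axis, a separate scale for each gene) is plotted under each processing setting (vertical axis) for LY6K, LY6D, LY6E, LYPD3 and SLURP1, with the reported value in black and a dashed line at 2-fold. Orange points lie on the other side of the calling threshold than the reported value. They are LY6D with normexp correction and offset (0.98) and LYPD3 under 3 settings (1.1 to 1.35), and LY6K has its lowest value, 5.83, with normexp correction.

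The files place 9 of the 10 genes, with 12 probes, on chromosome 8 between PSCA and LY6H, over hg19 chr8:143763976-144239812. Along this stretch genes that were higher, lower and not called in pLB were interspersed. From the LY6K probe, PSCA lay 20.8 kb to one side (not called) and SLURP1 37.5 kb to the other (lower), LYPD2 lay at 47 kb (not measurable), the LYNX1 probes at 60.9 to 74.6 kb (not called), LY6D at 81.5 kb (higher), GML at 143 kb (not measurable), LY6E at 318 kb (higher) and LY6H at 455 kb (not measurable). C8orf55, now THEM6, has its probe between those of LY6K and SLURP1 and differed by -0.30 ± 0.20, which did not pass the test. CYP11B1 and CYP11B2, the adrenal steroid hydroxylase genes between GML and LY6E, were not tested, as their probes were well above background on 1 array and on no array.

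Within this stretch and 500 kb on either side of it, 31 other genes had a probe and 24 were tested. Of these, 6 were higher in pLB and 3 lower, 15 were not called, and the median log2 difference was -0.04, against 0.04 and the shares of 22.7% higher and 23.0% lower over all tested genes. The largest differences were those of the transcript ENST00000531730 (-3.42 ± 0.33, at least 3.40-fold lower in pLB), BAI1, an adhesion receptor now named ADGRB1 (2.71 ± 0.20), the unnamed locus LOC286121 (2.67 ± 0.25) and ARC, an immediate early gene of neurons (2.36 ± 0.19). These passed the test in limma, with the largest adjusted p of the 9 called genes at 0.00248. BAI1 and ARC lay 159 and 92.2 kb from the LY6K probe, on the side of PSCA, and JRK, which lies between ARC and PSCA at 45.8 kb, differed by -0.03 ± 0.36. GPIHBP1, which lies beyond LY6H at 514 kb from the LY6K probe, differed by 0.28 ± 0.22 and was not called. It carries the LY6/uPAR domain and is counted both among these neighbours and among the further family genes below.

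**Figure D3:**
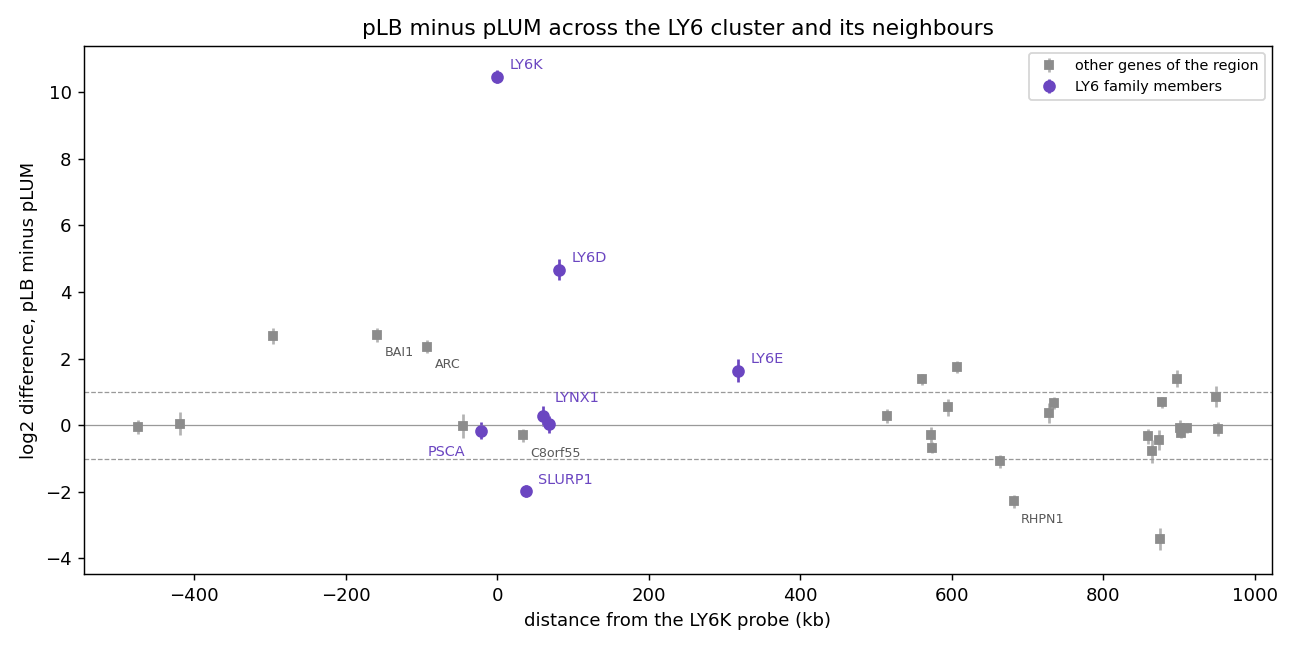
The fitted log2 difference between pLB and pLUM (vertical axis, bars are standard errors) is plotted against distance from the LY6K probe in kb (horizontal axis) for tested probes of the LY6 genes (purple) and of their neighbours (grey), with dashed lines at 2-fold. The further family gene GPIHBP1 is among the grey points. LY6K at 10.46 and LY6D at 4.67 stand above the neighbours, the largest of which is BAI1 at 2.71, and SLURP1, PSCA and LYNX1 between and beside them are lower or near 0. The LY6K and LY6D points depend on pLUM arrays at background. LY6D was 0.98 with normexp correction and offset, so its place above the neighbours is not settled.

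Elsewhere in the family, 22 of 26 further genes with the LY6/uPAR domain, GPIHBP1 included, were on the array under their own symbols and 15 were tested. Of these, 4 were higher and 4 lower in pLB, with the largest limma adjusted p of the 8 at 0.0266, and the median log2 difference was -0.19. The shares over all tested genes were 22.7% and 23.0%. LYPD5, a little characterized relative, gave -5.36, -5.15 and -4.87 in pLUM, where only 1 array was well above background, and -0.33, -0.77 and -0.64 in pLB, a difference of 4.55 ± 0.20. LYPD1, which binds nicotinic receptors in neurons, was nearly the same on all pLB arrays (-0.14, -0.15 and -0.14, against -3.63, -3.86 and -3.46 in pLUM) and 3.51 ± 0.17 higher there. A further LYPD1 probe was 2.93 ± 0.37 higher and another was well above background on no array. PLAUR, the urokinase receptor, was 2.68 ± 0.34 higher, with 1 pLUM array and all pLB arrays well above background. LYPD6, an extracellular partner of Wnt coreceptors, was at least 3.46-fold higher by its tested probe. That probe gave -6.90, -6.09 and -5.73 in pLUM, none well above background, and -3.50, -3.70 and -3.55 in pLB. The other LYPD6 probe gave -6.92, -5.03 and -6.03 in pLUM and -5.67, -6.79 and -5.10 in pLB. It was well above background on 1 pLUM array and no pLB array and was not tested.

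The genes that were lower in pLB were PATE2 (-1.78 ± 0.39), expressed in the epididymis and other tissues of the reproductive tract, SPACA4 (at least 2.09-fold lower), a sperm membrane antigen, LYPD6B (-1.58 ± 0.20), which acts on nicotinic receptors, and LY6G5B (-1.15 ± 0.36), from the family's other cluster in the major histocompatibility region. LYPD6, by its tested probe only, and LYPD6B, which neighbour each other on chromosome 2, thus differed in opposite directions. LY6G6C (-0.70 ± 0.20) and LY6G6E (-0.76 ± 0.22) passed the adjusted p but not the 2-fold threshold. CD59, the inhibitor of the complement membrane attack complex, gave -2.39, -2.32 and -2.16 in pLUM and -2.20, -2.31 and -2.55 in pLB, with a difference of -0.06 ± 0.17. TEX101, the germ cell partner of LY6K, was well above background on no array.

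**Figure D4:**
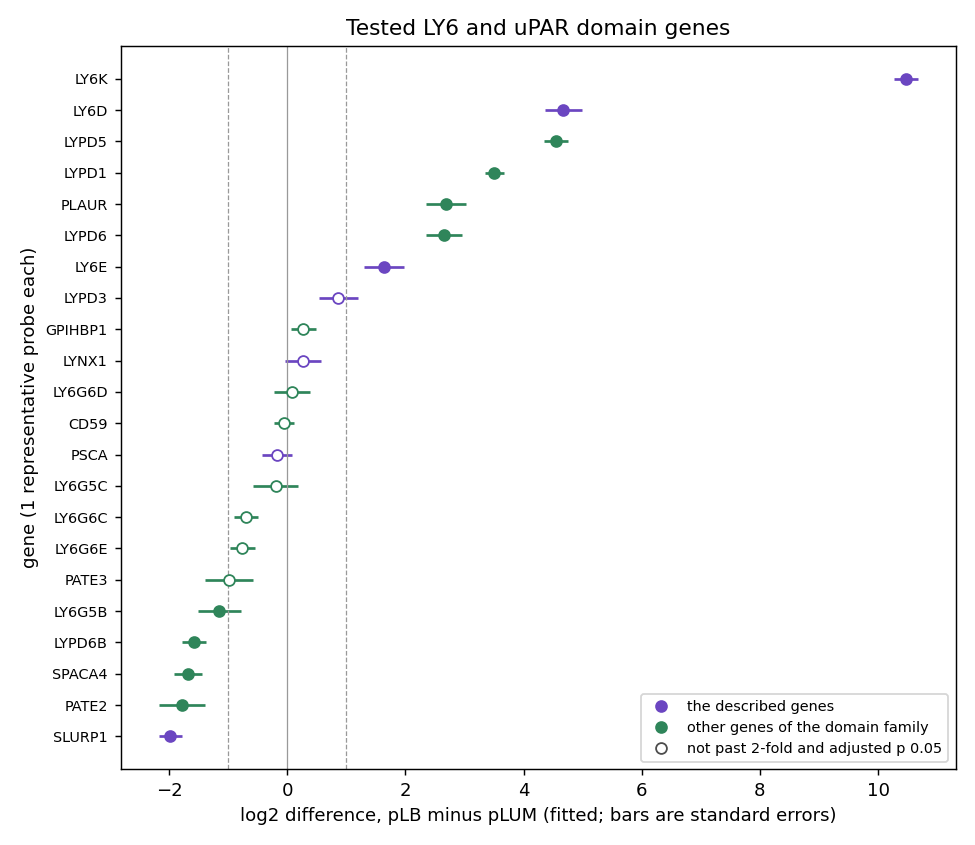
The fitted log2 difference between pLB and pLUM (horizontal axis, bars are standard errors) is plotted for each tested gene of the LY6/uPAR domain family (vertical axis), with the genes described first in purple, the others in green and open points where the gene was not called. LY6K (10.46) and LY6D (4.67) are the uppermost points, followed by LYPD5 (4.55) and LYPD1 (3.51), and SLURP1 (-1.98) is the lowest. LY6K, LY6D and LYPD6 were at background in pLUM and SPACA4 in pLB, so their points depend on that background and their places in this order, LY6D's beside LYPD5 and LYPD1 included, are not settled. LYPD5 and PLAUR were each well above background on only 1 pLUM array, so their points depend in part on background too.

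The receptors, enzymes and partners of these proteins were counted in the same way. Of 16 nicotinic receptor subunit genes, 6 were tested, 3 were higher and 1 was lower in pLB, and the median difference was 1.03, against 22.7% higher, 23.0% lower and a median of 0.04 over all tested genes. CHRNB2 gave -4.12, -4.24 and -3.52 in pLUM and 0.56, 0.21 and 0.55 in pLB, a difference of 4.40 ± 0.24. CHRNA7, which encodes the subunit on which SLURP1 acts, gave -6.54, -4.35 and -7.65 in pLUM, where 1 array was well above background, and -0.94, -1.02 and -1.21 in pLB. Its fitted difference of 5.12 ± 0.74 rests in part on the pLUM arrays at background, and its size is uncertain. CHRNA7 shares most of its sequence with the partial duplicate CHRFAM7A, so the source of this signal is uncertain. CHRNA5 was 1.14 ± 0.23 higher and CHRNB1, a muscle subunit, differed by -1.40 ± 0.42, with the largest limma adjusted p of the 4 at 0.0210. Without pLUM replicate 3 the number of subunits called was 2.

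Of 30 genes that build, attach or trim the GPI anchor, 29 were tested, 1 was higher and 8 were lower in pLB, with a median of -0.15. The gene called higher was PIGK (1.11 ± 0.27), by the probe that represents it, whereas its other tested probe differed by -0.73 ± 0.21. Among the probes that represent a gene, the largest differences were those of PIGZ (-2.88 ± 0.16), a mannosyltransferase, PIGL (-1.96 ± 0.16), a deacetylase of the early pathway, PIGX (-1.51 ± 0.17), a subunit of a mannosyltransferase, and PIGH (-1.24 ± 0.24), a subunit of the first enzyme. A further PIGL probe differed by -0.32 ± 0.31. DPM3, a subunit of dolichol-phosphate mannose synthase, was not called by its representing probe (-0.99 ± 0.18), while its other probe was lower in pLB by more than PIGZ (-3.02 ± 0.15). Probes also disagreed for PGAP1, whose representing probe was not called (-0.31 ± 0.17) while others differed by 1.18 ± 0.26 (higher) and 0.68 ± 0.30. PIGQ was not called by its representing probe (-0.73 ± 0.19) but was lower by its others (-1.50 ± 0.19 and -1.47 ± 0.30). PIGZ gave 3.82, 3.71 and 3.83 in pLUM and 1.07, 0.80 and 0.86 in pLB. The shares over all tested genes were 22.7% higher and 23.0% lower, and the count of called genes on this list was 5 with spike-in scaling and 16 without the 2-fold threshold.

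Of 4 listed binding partners of LYPD3, 3 were tested, 2 were higher in pLB and none was lower, with a median of 3.87, against 22.7% higher, 23.0% lower and a median of 0.04 over all tested genes. One of these calls is that of ITGA6, the antigen used for sorting, and is no finding. ITGB4, the integrin chain of hemidesmosomes, was 3.87 ± 0.20 higher in pLB, with 1.69, 1.83 and 2.23 in pLUM and 5.84, 5.62 and 5.90 in pLB. Its partner chain ITGA6 was 4.42 ± 0.34 higher. AGR2, a secreted disulfide isomerase of luminal cells, differed by -0.91 ± 0.17, under the 2-fold threshold, and AGR3 was well above background on no array.

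Genes of stratified epithelia, in which LY6D, SLURP1 and LYPD3 are known to be expressed, were counted because these genes are among their markers. Of 18, 14 were tested, 7 were higher and 3 lower in pLB, with a median of 1.06, beside 22.7% and 23.0% of all tested genes and their median of 0.04. DSG3, a desmosomal cadherin of basal keratinocytes, was at least 200-fold higher in pLB, where it gave 2.60, 2.46 and 1.74 and all pLUM arrays were at background. SPRR1B (7.29 ± 0.18) and SPRR3 (2.84 ± 0.30), precursors of the cornified envelope, were also higher. CDSN, which encodes corneodesmosin, gave 1.46, 1.39 and 0.82 in pLUM and -5.95, -5.51 and -5.42 in pLB, with 1 pLB array well above background, a difference of -6.85 ± 0.24. SBSN (-1.91) and TGM1 (-1.02) were the others that were lower. The largest limma adjusted p of the 10 was 0.00853.

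Interferon-induced genes were counted because LY6E is one of their kind. Of 15, 13 were tested, 5 were higher and 2 lower in pLB, with a median of 0.05, beside 22.7% and 23.0% of all tested genes and their median of 0.04. The largest differences were those of OAS2 (3.02 ± 0.22) and OAS1 (at least 2.67-fold higher), sensors of double-stranded RNA, and of IFI44 (2.99 ± 0.18) and IFI44L (at least 2.08-fold higher). OAS2 had further probes at 1.72 and 2.25. IRF7 (-1.63) and IFI27 (-1.25) were lower, while ISG15 (0.99 ± 0.18) and MX1 (-0.12 ± 0.19) were not called.

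The genes whose signals were most like those of LY6K over the 6 arrays were found by the root-mean-square difference of mean-centred log2 values among 13154 genes. They were NIPAL4 (0.14), SERPINB5 (0.15), CXCL1 (0.22), ZBED2 (0.29) and PLAT (0.31). Those most like LY6D were KIF3C (0.17), SPRY4 (0.17), TNFSF15 (0.22), C11orf96 (0.22) and PRSS21 (0.22). All 10 were well above background on no pLUM array and on all 3 pLB arrays, as LY6K and LY6D were, so that this likeness rests on a step of similar size between the lines and on background values in pLUM.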

How the data were processed

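For each of the 6 arrays the authors deposited a spot table from Agilent Feature Extraction 10.10.1.1, with a background-corrected intensity per spot on a linear scale and flags for outliers, saturation and signals well above background. These intensities had not been normalized between arrays. Gene symbols, transcripts and hg19 positions are those of the files. Exons and UTRs were not read, as no hg19 annotation was used here, and RefSeq names (GRCh38.p14) were matched by transcript or symbol, with no position taken.

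Intensities were divided by the 75th percentile of their array and expressed as log2. Neither control spots nor the 296 to 387 spots per array flagged as outliers were used, and replicate spots were averaged. Of 34127 probes, 23105 were well above background on 3 or more arrays and were fitted with limma 3.58.1 in R 4.3.3 (lmFit, eBayes), and calls required 2-fold and a Benjamini-Hochberg adjusted p under 0.05. Tested on simulated data for pLB against pLUM, the fit recovered 150 of 200 changed probes (75%) with 2 false calls. That simulation changed 200 of 23105 probes, whereas 45.6% of tested probes were called in the data, so its rates do not carry over to these calls. A gene is represented by its tested probe with the highest mean.

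The genes and lists were chosen with earlier results of these data known. Named are every gene described with all its probes and, from each list and from the neighbours, up to 4 called genes with the largest difference, plus genes that share a locus. Genes named beyond these, such as CD59, TEX101, PIGK, DPM3, TGM1 and ISG15, were chosen after their values were seen. For the 2 genes with the widest range, the 5 most alike were named. Replicate numbers did not pair the samples, since deviations of same-numbered samples correlated at -0.27, -0.09 and -0.22. As alternatives, the scaling, background correction, filter, fold threshold, test, block and window were changed in turn, and each array was left out.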

Additional observations from a re-analysis of the deposited data

How the results depend on the processing

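LY6K, LY6E and SLURP1 kept their direction and call under every alternative that gave them a value. A filter for probes well above background on all 6 arrays removes LY6K and LY6D and left 1 of the described genes called higher, against 3. With that filter 1 further family gene was higher (against 4), and 2 nicotinic receptor and 6 stratified epithelium genes were called (against 4 and 10). With normexp correction and an offset of 50, 3004 probes were higher, against 5054, LY6D fell to 0.98 and was not called, 2 further family genes were higher and 2 lower (against 4 and 4), and 2 nicotinic receptor, 5 stratified epithelium and 4 interferon genes were called (against 4, 10 and 7). The GPI anchor list had 5 calls with spike-in scaling and 16 without the 2-fold threshold, against 9. With a window of 1000 kb, which takes in more genes, 10 neighbours were higher and 10 lower, against 6 and 3 of 24 tested. The number tested in the wider window was not counted, so no share is read beside the 22.7% and 23.0% of all tested genes. Leaving out 1 array gave 2 to 5 nicotinic receptor calls, the lowest without pLUM replicate 3. LYPD3 passed the threshold with slide as a block (1.35), without pLB replicate 3 (1.17) and without pLUM replicate 3 (1.1). LYNX1 and PSCA, which were not called, changed sign in 1 setting each, to -0.02 without pLUM replicate 3 and to 0.09 with spike-in scaling. The cause of these changes was not tested.

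With slide as a block, 5196 of 23105 tested probes were higher and 6093 lower, against 5054 and 5476. Of 15 tested further family genes 4 were higher and 5 lower, and of 24 tested neighbours 6 were higher and 3 lower. The GPI anchor, nicotinic receptor, LYPD3 partner, stratified epithelium and interferon lists had 7, 3, 2, 11 and 7 calls. They had 29, 6, 3, 14 and 13 tested genes, and 9, 4, 2, 10 and 7 calls without the block. These differences rest on pLB replicate 1 against pLUM. With the replicate number as a block, 4986 probes were higher and 5383 lower, against 5054 and 5476, and 3 of the described genes were higher and 1 lower, as without it. The numbers mark no shared animal or day in the labels. Spike-in scaling moved the median log2 difference of all tested probes by 0.26 and normexp correction by -0.25. Signals below the level well above background limit what could be measured for LY6H, GML and LYPD2, for which no difference is given. They also make the folds of LY6K and LY6D lower bounds under the reported processing, which do not hold with normexp correction and its offset.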
